A study of Mus musculus with 6 samples.

Results

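Transcription factors of the families that pattern the embryo were examined in the transcripts of blood-forming organs of the mouse: Fox, Gata, Hox, Lhx, Pax, Runx, Sox and Tbx. The members were chosen by name alone, as the numbered genes of these families on a 5050-gene Xenium panel, which matched 112 genes. Leaving out 3 of them that are not covered here, 109 members of the 5050 genes remained: 34 Hox, 27 Fox, 16 Sox, 9 Pax, 9 Tbx, 7 Lhx, 5 Gata and 2 Runx genes. Transcripts were read in place and assigned to segmented cells in formalin-fixed, paraffin-embedded sections 5 µm thick of tissue from wild-type mice. The larger panel was read on 1 section of E13.5 fetal liver and 1 section of bone marrow from an 89-week-old mouse, and the study also read a 477-gene panel, which holds 6 of the members, on E14.5 fetal liver, bone marrow of postnatal day 8, spleen of an untreated adult and spleen of a mouse given phenylhydrazine (PHZ, which destroys red cells) at 40 mg/kg by 2 injections a day. The liver was fixed in formalin and embedded directly, whereas the 89-week marrow was fixed within the bone in paraformaldehyde, embedded in gelatin, cryosectioned and separated from the bone before it went into paraffin. Each condition was 1 section, so no difference between conditions has a replicate check, no test was made, and every interval given is a 95% interval that covers counting error only. An interval follows its value in parentheses.

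These factors bind DNA and set which lineage a cell takes, and many act at very low transcript numbers. Hox genes sit in 4 clusters and give position along the body axis, in the order in which they lie in a cluster. Gata, Runx and several Sox and Fox factors also act in blood: some drive erythroid, mast cell or lymphoid programmes, while their relatives in the same family build the mesothelium, endothelium, heart, bile ducts or skeleton. In the fetal liver, blood cells mature among hepatoblasts, stellate cells and vessels, and in the marrow among stromal, bone-forming and endothelial cells.

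After removal of cells with fewer than 5 detected genes, the liver section held 5254 cells with a median of 190 counts and the marrow section 140707 cells with a median of 60 counts. The labelled tissues were checked against marker lists. Erythroid genes led in 56.0% of the liver cells and hepatocyte genes in 24.4%, while neutrophil genes led in 28.2% and erythroid genes in 22.1% of the marrow cells. No cell name was shared between the 2 sections. Levels are given as CPM, the count of a gene scaled to the total of all gene counts of its section. 1 piece of the liver section, of 155 cells or 2.95%, carried skeletal muscle genes at 1970 CPM against 68.1 CPM elsewhere and the erythroid list at 2783 against 52941 CPM, and also held the mesothelial list at 719 against 111 CPM (6.46, 4.54–9.05) and the stellate and mesenchymal list at 19151 against 5007 CPM (3.82, 3.60–4.07). Of the called members above the genomic controls described next, those whose ratio between the sections moved by over 1.5 times without it are also given without it, as are some list ratios and neighbour shares. It was boxed after the map of the section had been seen.

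The members were rare transcripts. Summed over all 109, they gave 4677 counts or 3378 CPM (3281–3476) in the liver and 46397 counts or 3557 CPM (3525–3589) in the marrow. At least 1 member was detected in 43.7% of the liver cells and 23.5% of the marrow cells, which had fewer counts each. In such a section, fewer cells of a type and less RNA per cell cannot be told apart from a level. The 10 most abundant members held 64.4% of the members' counts in the liver and 73.4% in the marrow. Most of the others lay near the noise, which was judged from 2 kinds of control. The negative control probes, made to have no target in the mouse, reached 1 count in the liver and 18 in the marrow. The genomic controls, 21 probes to DNA outside genes, reached 5 and 90 counts. Above the highest negative control probe lay 85 members in the liver (89% of all panel genes did) and 104 in the marrow (97.8%). Above the highest genomic control lay 55 members in the liver, or 50.5% against 72.8% of all panel genes, and 41 members in the marrow, or 37.6% against 69.9%. No count was seen in the liver for 8 members: Hoxb1, Hoxb9, Hoxc10, Hoxc12, Foxp3, Pax6, Pax9 and Sox21. The floor of 3 counts used for such a gene is 2.17 CPM in this section, and the exact upper bound for 0 counts is 2.66 CPM. The mean genomic control stood at 0.308 counts per 1000 cells in the liver and 0.329 in the marrow. On the CPM scale, where the deeper liver cells count for more, the summed controls stood at 0.330 of the marrow level, and the 39 members with counts in both sections that exceeded the controls in neither had a median log2 ratio of -1.09, liver over marrow, against -0.13 for all panel genes.

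The most abundant members in the liver were Foxp4 with 588 counts, Sox6 with 456, Sox4 with 348, Foxo3 with 328, Foxm1 with 285 and Gata4 with 283. Foxp1 (231), Gata6 (202), Sox11 (147), Runx1 (145), Tbx20 (128) and Foxo1 (127) followed. In the marrow the order was Foxp1 with 6454 counts, Sox6 with 6274, Runx1 with 4006, Sox4 with 3212, Pax5 with 3177 and Foxp4 with 2899, then Foxo3 (2505), Foxm1 (2018), Foxo1 (1850), Gata2 (1682), Runx3 (911) and Sox18 (788). Thus 8 of the 12 were shared: the forkhead factors Foxp1, Foxp4, Foxo1, Foxo3 and Foxm1, the Sox factors Sox4 and Sox6, and Runx1. Sox4, which acts in progenitors and early B cells, stood at 251 CPM (226–279) in the liver and 246 CPM (238–255) in the marrow, so the intervals overlap, but the boxed piece held 86 of its 348 liver counts. Without it Sox4 stood at 198 CPM, a ratio of 0.806 (0.708–0.914). Per 1000 cells, with the piece kept, Sox4 gave 66.2 counts in the liver and 22.8 in the marrow. Without the piece its log2 ratio per 1000 cells was 1.17, on the liver side. Foxm1, a factor of dividing cells, stood at 206 CPM (183–231) and 155 CPM (148–162).

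**Figure D1:**
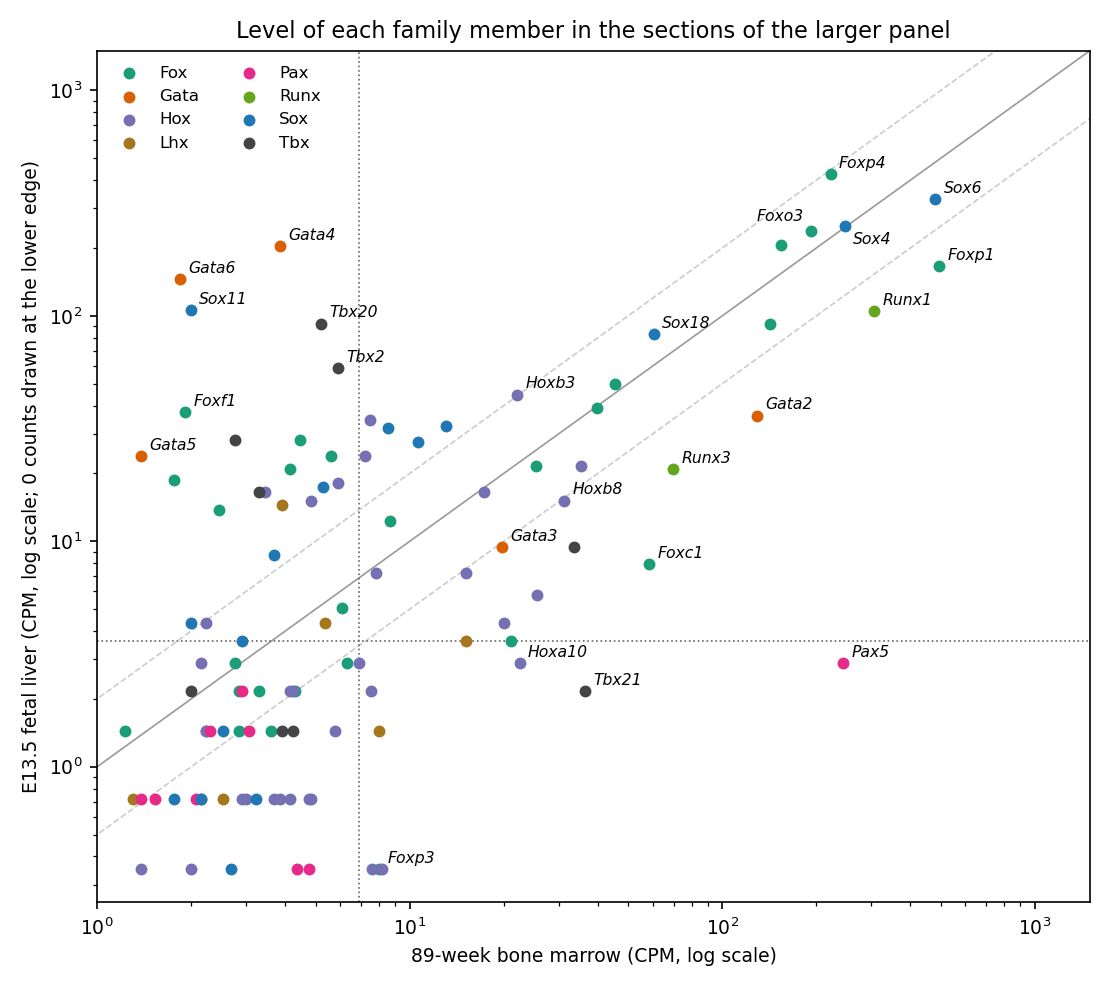
Level of each of the 109 members in the marrow section (horizontal axis) against the liver section (vertical axis), both in CPM on log scales, with 1 point a gene coloured by family and the 8 members without a count in the liver drawn at the lower edge. Gata4, Gata6 and Sox11 lie far to the liver side at over 100 CPM there, and Pax5, at 244 CPM in the marrow and 2.89 in the liver, lies far to the marrow side.

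Between the liver and the marrow, 26 members were higher in the liver and 26 higher in the marrow by at least 2-fold with an interval clear of 1. These are 23.9% each, against 17% and 21.6% of all panel genes, so the marrow share is near the background. With the further demand that the gene exceed the highest genomic control in the section where it was higher, 26 remained in the liver (16.9% of all panel genes met this) and 21, or 19.3%, in the marrow (18.1%). Counted per 1000 cells in place of CPM, which moves all genes toward the liver (the median log2 ratio by 1.51), 40 members (36.7%, against 53.7% of all panel genes) were higher in the liver and 6 (5.50%, against 7.62%) in the marrow. With the mean genomic control subtracted the counts were 32 (29.4%, against 22%) and 17 (15.6%, against 17.3%). The families were divided in CPM. All 6 Sox genes and 4 of the 6 Tbx genes called were higher in the liver. Both Runx genes were higher in the marrow, as were 3 Pax genes, of which only Pax5 exceeded the genomic controls. All 5 Gata genes were called, Gata4, Gata5 and Gata6 on the liver side and Gata2 and Gata3 on the marrow side. Per 1000 cells neither Gata3 (1.35, 0.712–2.36) nor Gata2 (0.796, 0.588–1.05) was called any longer, with log2 ratios of 0.44 and -0.33. As the sections differ in age, organ, preparation and cell depth together, the part of each cannot be told apart.

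Gata4, Gata5 and Gata6, the Gata factors of heart, gut and mesothelium, were among the widest differences. Gata6 gave 202 counts in the liver and 24 in the marrow, or 146 against 1.84 CPM, a ratio of 79.3 (51.8–127). Gata4 gave 283 and 50 counts, a ratio of 53.3 (39.4–73.5), and Gata5 gave 33 and 18, a ratio of 17.3 (9.45–32.6). In the marrow all 3 lay below the highest genomic control, as did each gene of this and the next paragraph, so by level alone the marrow values cannot be told from noise. T-box factors went the same way. Tbx20, a factor of heart and mesenchyme, gave 128 counts in the liver and 68 in the marrow (17.7, 13.1–24.2), and Tbx2 and Tbx3, closely related repressors, gave 81 and 77 (9.91, 7.16–13.7) and 39 and 36 counts (10.2, 6.32–16.5). Sox11, a factor of embryonic mesenchyme and nerve, had 147 and 26 counts (53.3, 34.9–84.2). Foxf1, a target of hedgehog signalling in visceral mesenchyme, had 52 and 25 (19.6, 11.9–33.0).

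Other forkhead genes were also higher in the liver. Foxa1 and Foxa2 open chromatin at liver genes. Foxa1 gave 26 counts in the liver and 23 in the marrow (10.6, 5.84–19.5), and Foxa2 gave 39 and 58 (6.33, 4.11–9.67). Foxj1, the factor of motile cilia, gave 19 and 32 (5.59, with an upper bound of 10.2), and Foxh1, a partner of Smad proteins, 29 and 54 (5.06, 3.11–8.09).

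On the marrow side, Pax5, which fixes B-cell identity, had 4 counts in the liver and 3177 in the marrow, a ratio of 84.3 (32.9–310) in favour of the marrow. Tbx21, the T-bet factor of natural killer (NK) cells and type 1 T cells, had 3 and 474 counts, a marrow excess of 16.8-fold (5.70–81.6). Foxc1, a factor of marrow stroma, had 11 and 761 (7.34, 4.08–14.8), and 12.8 (5.87–35.1) without the 5 liver counts inside the boxed piece. Foxp3, the factor of regulatory T cells, had none in the liver and 104 in the marrow, 3.68-fold higher against a floor of 3 counts, with an exact lower bound of 2.94-fold. 4 other blood factors were closer. Runx1, which founds the definitive blood lineage, stood 2.93-fold higher in the marrow (2.48–3.49) and Runx3, a factor of NK and cytotoxic T cells, 3.33-fold (2.31–5.01). Gata2, a factor of stem cells and mast cells, was 3.57-fold higher (2.70–4.83) and Foxp1, a factor of B-cell development, 2.97-fold (2.60–3.40). These 4 rest on the scale: per 1000 cells Runx1 gave 27.6 counts in the liver and 28.5 in the marrow and Foxp1 44.0 and 45.9, log2 ratios of -0.04 and -0.06, and Runx3 and Gata2 stood at -0.23 and -0.33. Pax5 at -4.89, Tbx21 at -2.56 and Foxc1 at -1.37 stayed on the marrow side per 1000 cells.

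The partner proteins of 3 families, on lists chosen by their known role, were read in the same way. Of 9 listed Gata partners 6 were on the panel, of which 3 were higher in the liver (17% of all panel genes were) and none in the marrow (21.6%). Zfpm2, the friend-of-Gata protein that binds Gata4, gave 68 counts in the liver and 54 in the marrow, a ratio of 11.9 (8.18–17.3), although its marrow count lay below the highest genomic control. Ldb1, the bridging protein of the erythroid Gata complex, gave 1791 and 8395 (2.01, 1.91–2.11) and its relative Ldb2 78 and 252 (2.92, 2.23–3.77). Tal1 and Lmo2, further members of that complex, had ratios of 1.41 and 0.607, and Tcf3, also on the list, 1.44. None of these was called. For Runx, 3 of 6 partners were on the panel: Cbfb, the obligate partner, was at 96.0 CPM in the liver and 209 in the marrow, a liver ratio of 0.459 (0.383–0.547) that turned to the liver side per 1000 cells (25.3 against 19.4 counts), while the corepressor Tle1 was higher in the liver at 3.14 (2.72–3.62). For Hox, 10 of 13 were on the panel, and 2 of them, near the share of all panel genes, were higher in the liver and none in the marrow: the partners Meis2 (11.6, 9.41–14.2) and Pbx3 (2.13, 1.73–2.62).

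Hox transcripts differed more in their place in the clusters than in their sum. Together the 34 genes stood at 260 CPM (234–288) in the liver and 309 CPM (300–319) in the marrow. Genes of groups 1 to 4, at the anterior end, held 69.7% of the Hox counts in the liver and 31.1% in the marrow, at 181 CPM (160–205) and 96.2 CPM (91.0–102). Groups 5 to 10 held 27.2% and 60.9%, at 70.8 CPM (57.5–86.2) and 188 CPM (181–196). For groups 11 to 13 no gene exceeded the genomic controls in either section. Cluster a stood at 114 and 107 CPM and cluster b at 119 and 135, while clusters c and d were low in both, at 11.6 and 15.2 CPM in the liver and 41.2 and 25.8 CPM in the marrow. Among single genes, Hoxb2 (4.81, 2.78–8.13), Hoxa3 (4.66, 3.23–6.65), Hoxa2, Hoxa4 and Hoxb3 were among those higher in the liver, of which Hoxb3 was no longer called without the boxed piece (1.41, 0.988–1.96). The 8 Hox genes that were higher in the marrow and above the genomic controls there were Hoxa7, Hoxa9, Hoxa10, Hoxb6, Hoxb8, Hoxb9, Hoxc6 and Hoxc10, of which Hoxa10 had 4 counts in the liver and 293 in the marrow (7.78, with an upper bound of 28.7, and 14.8 without the boxed piece, which held 2 of the 4) and Hoxa9, a leukaemia gene when overexpressed, 6 and 261 (4.62, 2.09–12.7). In CPM every called gene of groups 1 to 4 was on the liver side and every called gene of the later groups on the marrow side. Per 1000 cells Hoxb8 (1.39, 0.848–2.15) and Hoxc6 (1.36, 0.642–2.55) were not called, with log2 ratios of 0.47 and 0.44. On that scale the split of the calls did not hold: of the 8 genes only Hoxa10 and Hoxb9 were still called on the marrow side, while the later genes Hoxa5 (2.63, 1.22–5.03) and Hoxb5 (2.74, with an upper bound of 4.21) were called on the liver side. For Hoxc6 the positive log2 ratio rested on the boxed piece, which held 6 of its 10 liver counts, as its log2 ratio per 1000 cells was -0.84 without it. The shares of the Hox counts do not depend on the scale.

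The other genes seen in the same cells were then compared. For each member with at least 20 positive cells, the CPM of 22 lineage marker lists in the positive cells was set against that in all other cells, without any member in a list. Positive cells had more counts than the rest: the median was 120 for Pax5 against 61 for the other marrow cells and 410.5 for Gata4 against 184 in the liver. A ratio of 2 was no result in the marrow, since 18 of the 21 genomic controls (85.7%) also had a leading list at 2-fold or more, with a median of 2.49 and a range of 1.69 to 8.05. The controls had only 22 to 88 positive cells each, and the highest of their ratios rests on 8 list counts. The range therefore cannot decide whether a list ratio of a member with far more positive cells is noise. There 33 of 41 members above the genomic controls (80.5%) had such a list, against 56.4% of all panel genes above them. At 5-fold or more were 15 of the 41 (36.6%), 17.3% of the panel genes and 2 controls. The leading list of 15 of the 41 members, again 36.6%, had a lower bound above that of every genomic control, against 21.6% of panel genes. For single genes, the leading gene of a genomic control had a median ratio of 4.40 and reached 13.6, with lower bounds up to 4.38. The 15 members are Foxc1, Foxp3, Gata2, Gata3, Hoxa3, Hoxa10, Hoxb3, Hoxb5, Hoxb8, Hoxc6, Hoxc10, Pax5, Sox17, Sox18 and Tbx21. In the liver 36 of 40 members (90%) had a leading list at 2-fold, against 68.4% of panel genes, and 28 (70%) at 5-fold, against 22.3%. No genomic control had 20 positive cells there.

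**Figure D2:**
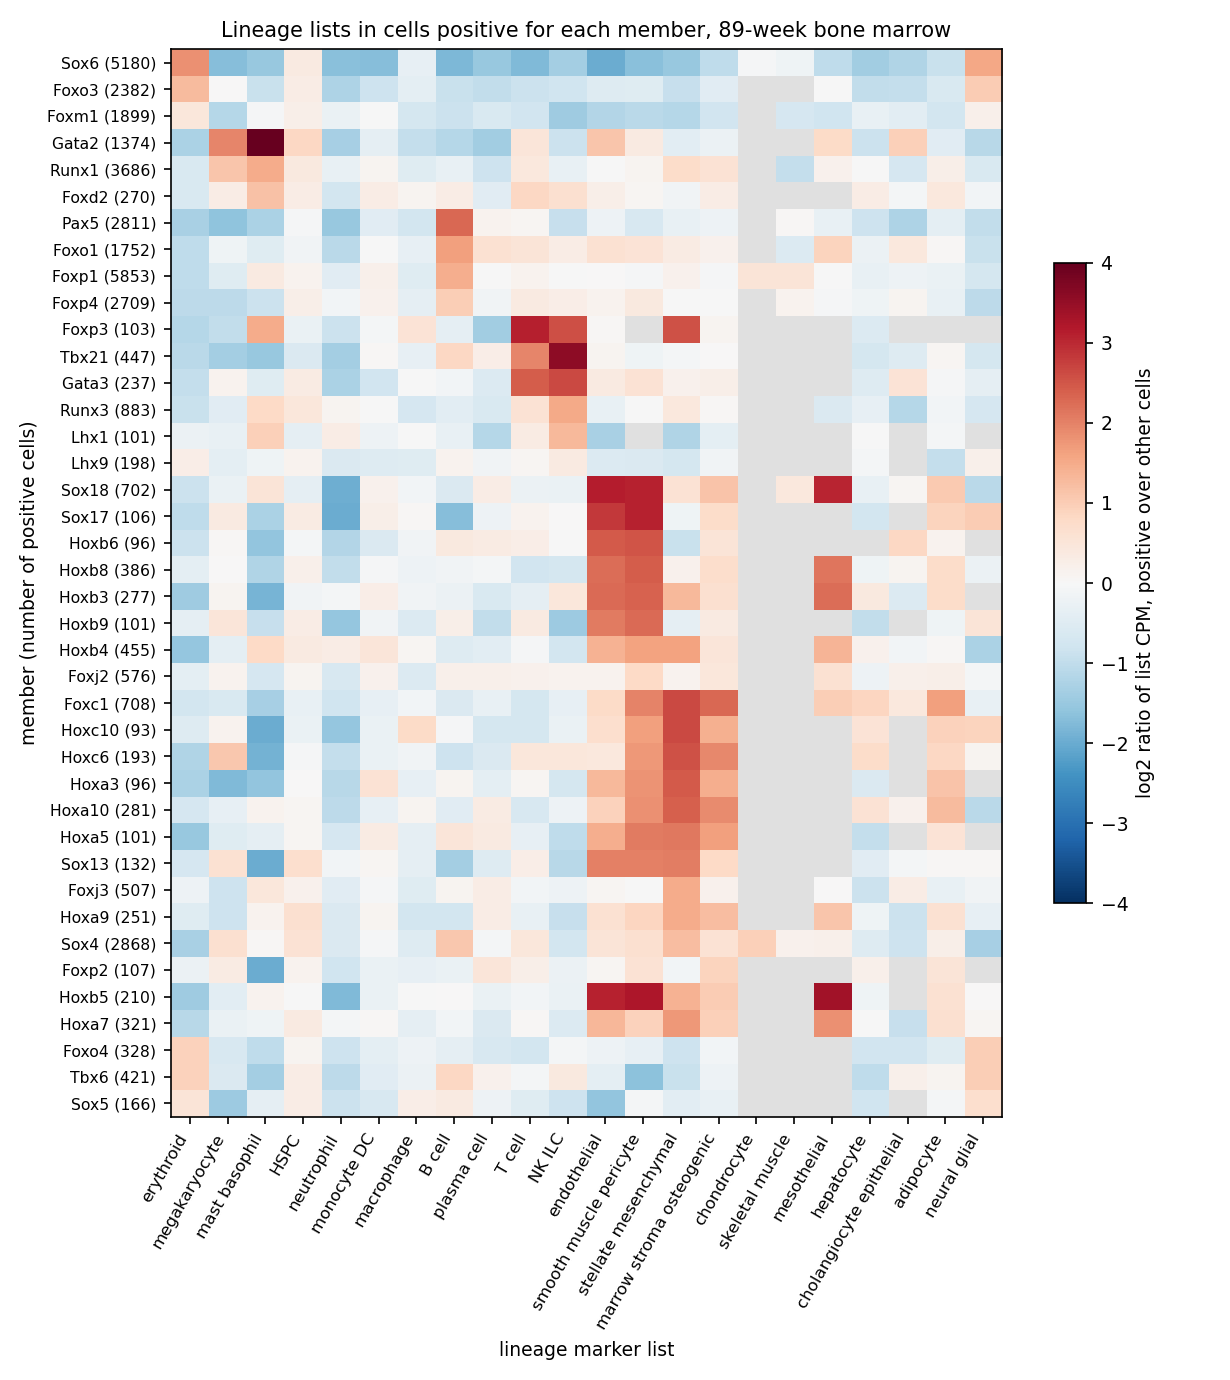
Lineage lists (columns) in marrow cells positive for each member shown (rows, with the number of positive cells), as the log2 ratio of the list's CPM in positive over other cells. Gata2 stands out in the mast cell and basophil column, Pax5 in the B-cell column, Tbx21 in the NK column, and Sox17, Sox18 and Hoxb5 in the endothelial column.

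Lymphoid genes were raised in marrow cells positive for Pax5, Tbx21, Gata3 and Foxp3. The 2811 Pax5-positive cells had the B-cell list at 18071 CPM against 3678 in other cells (4.91, 4.79–5.03), and 1277 of them held Spib, a factor of B cells and plasmacytoid dendritic cells. Cells led by the B-cell list carried Pax5 at 1659 CPM, although more of its counts (1010 against 870) came from cells with no leading list, which are shallow. Foxp1 and Foxo1, forkhead factors that promote B-cell development, had the same leading list at 2.75 (2.69–2.81) and 3.11, within the range of the genomic controls. Rag1, which cuts antigen receptor genes, was raised 3.87-fold (3.57–4.20) in Foxp1-positive cells and 4.36-fold (3.85–4.93) in Foxo1-positive cells, again within the range of the controls. Sox4-positive cells had Rag1 at 5.61-fold (5.13–6.12), with a lower bound above that of every control, and Rag2 at 5.84-fold (4.22–7.95), with one that is not. In the 447 Tbx21-positive cells the NK list was raised 11.95-fold (11.2–12.8), with Gzma, a granzyme, in 23 cells and Ncr1, an NK receptor, in 44. Of the 17362 marrow counts of the NK list, used here and for Gata3, 11968 were of the chemokine gene Ccl5 and 877 of Ncr1. Gata3, the factor of T helper 2 and innate lymphoid cells, had the NK list at 6.28 (5.52–7.12) and the T-cell list at 5.37 (4.68–6.14) in 237 cells. In the 103 Foxp3-positive cells the T-cell list stood at 8.70 (7.21–10.4), with Ctla4 and Ikzf2, genes of regulatory T cells, in 6 and 15 cells. Gata3 itself was seen in 5 of the Foxp3-positive cells, 25.3-fold (8.16–59.9) its level elsewhere.

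In the marrow, Gata2 had the highest list ratio of the members above the genomic controls. Its 1374 positive marrow cells carried the mast cell and basophil list at 35423 CPM against 1350 in other cells (26.2, 25.6–26.9), led by the granule proteases Prss34 (34.8, 33.6–36.1, in 321 cells) and Mcpt8 (32.2, 30.7–33.7, in 324 cells). Cells led by that list had Gata2 at 4082 CPM, those led by the stem and progenitor list at 1113 CPM and those led by megakaryocyte genes at 402 CPM. Of the 49504 marrow counts of the stem and progenitor list, 14610 were of Lmo2, 11731 of Myb, 6944 of Tal1 and 5205 of Cd48, against 356 of Hlf and 98 of Mecom. Runx1-positive cells also led with the mast cell and basophil list, at 2.83 (2.73–2.93), within the range of the genomic controls. In the fetal liver the picture differed. Gata2, with 44 positive cells, had the T-cell list first (4.30, 2.42–7.14), of which Lat made 144 of 245 counts in this section, and the endothelial list next (2.26, 1.91–2.66). Runx1-positive and Runx3-positive liver cells led with the neutrophil list at 6.27 (5.67–6.94) and 8.04 (6.93–9.29), carried by the early granule genes Mpo and Prtn3. The value for Runx1 fell to 0.634 when each cell was thinned to 50 counts.

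The erythroid list led in marrow cells positive for Sox6, which silences embryonic globin. Of its 6274 marrow counts 5507 lay in cells led by the erythroid list, at 1307 CPM, against 143 CPM in cells led by macrophage genes. Its 5180 positive marrow cells had the erythroid list at 3.53-fold (3.51–3.56), with Slc4a1, the red-cell anion exchanger, in 4480 of them. That ratio lies within the range of the genomic controls, but their leading lists did not include the erythroid one and rest on far fewer cells. In the liver Sox6 stood at 524 CPM in erythroid-led and 115 CPM in hepatocyte-led cells, yet the erythroid list was only 1.47-fold (1.44–1.51) higher in its positive cells, as the list was high in the other cells too, at 48246 CPM. The leading list of these liver cells was the mesothelial one (2.38, 1.65–3.37, on 42 counts). Foxo3, a forkhead factor active in late erythroid maturation, followed Sox6. The erythroid list was 2.42-fold (2.40–2.45) higher in its positive marrow cells, below the control median of 2.49, Sox6 was seen in 409 of those cells, and liver cells led by erythroid genes held Foxo3 at 321 CPM against 145 CPM in hepatocyte-led cells. In marrow cells positive for Foxo4 (1.89), Foxn4 (1.65) and Foxm1 (1.38) the list ratio was lower still and also below that median. Foxn4, with 37 marrow counts, did not exceed the highest genomic control.

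Endothelial and pericyte genes were raised in marrow cells positive for Sox18 and Sox17. These factors, which specify endothelium, had the endothelial list at 8.89 (8.38–9.43) and 7.14 (6.02–8.41) and the pericyte list at 8.39 (7.42–9.45) and 8.37 (6.05–11.3), and Sox18 was 18.6-fold (10.9–29.5) higher in Sox17-positive cells. Of the Hox genes, Hoxb5 led with the mesothelial list at 10.3 (6.48–15.5), of whose 909 marrow counts 692 were of Gpm6a, and the pericyte list at 9.44 (7.63–11.6), followed by the endothelial list at 8.54 (7.65–9.50), with the receptor gene Kdr in 39 of 210 cells, and Hoxb3, Hoxb6, Hoxb8 and Hoxb9 had the endothelial list at 4.77, 5.49, 4.73 and 4.19, after the pericyte list at 5.15, 5.72, 5.32 and 4.83. The mesenchymal list led for Hoxa10 at 5.27 (4.68–5.91), Hoxa3 at 5.49 (4.42–6.73), Hoxc6 at 5.86 (5.08–6.73) and Hoxc10 at 6.23 (5.12–7.51). Only Hoxa3, Hoxa10, Hoxb3, Hoxb5, Hoxb8, Hoxc6 and Hoxc10 among the Hox genes above the genomic controls had a leading list past every control, and other Hox genes led with other lists. Foxc1 shared that list at 6.27 (5.85–6.71), with the stromal and bone-forming list at 4.86 (4.71–5.03) and with Ebf3, a factor of marrow stroma, in 130 cells. Foxc1 was raised 7.39-fold (4.55–11.4) in Hoxa10-positive and 8.00-fold (4.35–13.5) in Hoxc6-positive cells, the second with a lower bound within the controls, while Sox18 was raised 15.1-fold (10.1–21.9) in Hoxb5-positive cells. Tbx2, although below the highest genomic control in the marrow with 77 counts, had the highest list ratio of the members in this section: in its 73 positive cells the mesenchymal list stood at 51.8-fold (48.1–55.7), with Bglap2, which encodes osteocalcin, in 25 cells (189, 165–215) and Col1a1 in 24 (125, 110–142). No genomic control exceeded 8.05. Of the 63 members with 20 or more positive cells that were not above the genomic controls, 12 (19.0%) had a leading list past every control, against 16.1% of such panel genes.

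In the liver the mesothelial list was raised in cells positive for many members, among them Gata4, Gata5, Gata6 and Tbx20. The list had 193 liver counts, of which 75 were of Wt1, 58 of Upk3b and 41 of Gpm6a, and it led in no cell of the section. Without the boxed piece it also led with Sox5 (7.19, 3.83–12.5), Foxo4 (6.53, 2.77–13.2) and Foxp1 (4.51, 2.98–6.67), so it is not particular to the members named. How many panel genes share it is not given here. Gata5-positive cells, 28 in all, had the mesothelial list at 15.03-fold (9.46–23.0), with Upk3b, a mesothelial gene, in 6 of them. The list was raised 8.07-fold (5.70–11.3) with Tbx20, 6.72-fold (4.93–9.10) with Gata4 and 6.33-fold (4.54–8.73) with Gata6. Without the boxed piece, which carries that list, the ratios were 24.2 (14.9–37.6) with Gata5, 11.03 (7.59–15.8) with Tbx20, 8.43 (5.93–11.9) with Gata4 and 8.28 (5.71–11.8) with Gata6. The same list was raised with Hoxa4 (19.8), Hoxa3 (9.28), Hoxb2 (8.95), Hoxb4 (6.78), Sox4 (6.35), Sox11 (6.28) and Foxp4 (5.13). These values include the boxed piece, which held 46 of the 193 list counts, 6 of 25 Hoxa4 counts and 16 of 48 Hoxa3 counts. Without it the list led with Hoxb4 (8.79, 4.43–15.9), Sox11 (8.31, 5.54–12.2), Sox4 (7.02, 4.91–9.93) and Foxp4 (5.61, 4.00–7.85). Hoxa3 then led with the chondrocyte list (14.1, 9.51–20.3), and Hoxa4 and Hoxb2 have no value. A chondrocyte list was raised beside it and led for Tbx20 at 10.3-fold (7.79–13.5), but 253 of its 263 liver counts were of 1 gene, the collagen gene Col9a2, and Acan and Col10a1, which define cartilage, had 3 counts each. The list stood at 13.5-fold (8.96–19.7) with Gata5, and Col9a2 was seen in 10 of the Gata5-positive cells. Gata4 was 8.94-fold (5.57–13.7) higher in Gata5-positive cells. Cells led by endothelial genes held Gata4 at 906 CPM (647–1234) and those led by stellate and mesenchymal genes at 738 CPM (604–894), against 112 CPM in erythroid-led cells. Gata6 stood at 478 CPM and Tbx20 at 373 CPM in the stellate and mesenchymal class. The endothelial list was raised with Sox17 and Sox18 here too: the endothelial list was at 5.72 with Sox17 and 5.15 (4.71–5.62) with Sox18. Foxa2-positive and Sox9-positive cells led with the bile duct and epithelial list, at 5.79 (3.26–9.58) and 3.82 (1.39–8.42), beside the hepatocyte list at 3.11 (2.96–3.27) and 2.85 (2.66–3.06). Of the 269 liver counts of the bile duct and epithelial list, 218 were of Cdh1. Sox9 is a factor of bile duct precursors. Foxp4, the most abundant member of the liver, stood at 1413 CPM (1225–1623) in the stellate and mesenchymal class and 497 CPM (428–574) in hepatocyte-led cells, and Sox11 at 513 CPM (402–645) in the first of these. Of their counts, 114 of 588 and 41 of 147 lay in the boxed piece.

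**Figure D3:**
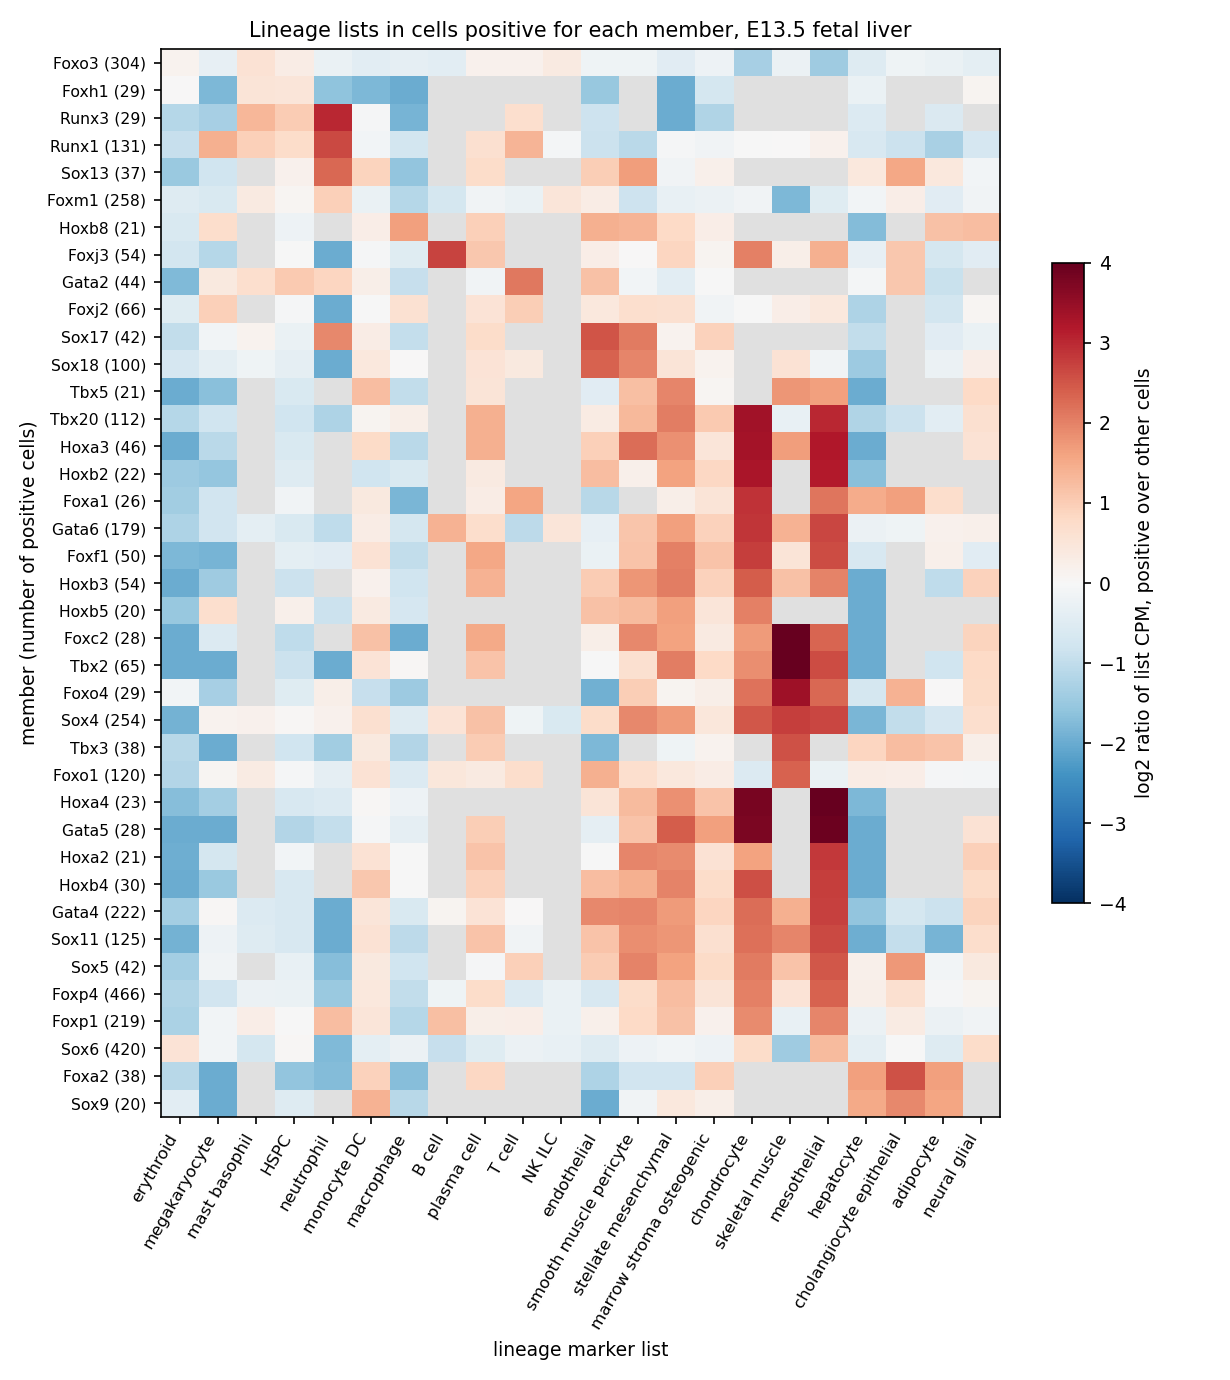
Lineage lists (columns) in fetal liver cells positive for each member shown (rows, with the number of positive cells), as the log2 ratio of the list's CPM in positive over other cells. The mesothelial column is high for Gata5, Hoxa4 and Tbx20, the endothelial column for Sox17 and Sox18, and the skeletal muscle column for Foxc2 and Tbx2. The cells of the boxed piece are included.

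As the mesothelial list was raised in cells positive for Gata5 and for Tbx20 in the liver and Pax5 was the widest on the marrow side, the 250 bases before the RefSeq transcription start of each (GRCm38.p6) are shown, 5′ to 3′ on the strand of the gene and with each GC box (GGGCGG or its reverse complement) in capitals. The files name no genome build, and the sequences are given as background to the genes.
Gata5 promoter (chr2:180334680-180334929, minus strand): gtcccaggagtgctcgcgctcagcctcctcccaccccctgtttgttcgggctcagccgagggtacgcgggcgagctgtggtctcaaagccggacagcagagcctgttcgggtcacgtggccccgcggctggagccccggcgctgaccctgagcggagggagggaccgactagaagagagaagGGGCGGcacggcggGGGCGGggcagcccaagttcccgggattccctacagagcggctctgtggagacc
Tbx20 promoter (chr9:24774304-24774553, minus strand): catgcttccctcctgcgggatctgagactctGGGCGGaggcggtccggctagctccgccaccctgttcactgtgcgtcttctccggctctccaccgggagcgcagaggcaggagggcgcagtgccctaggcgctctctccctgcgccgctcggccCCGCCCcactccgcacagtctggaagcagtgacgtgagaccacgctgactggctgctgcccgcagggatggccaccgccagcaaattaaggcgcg
Pax5 promoter (chr4:44710695-44710944, minus strand): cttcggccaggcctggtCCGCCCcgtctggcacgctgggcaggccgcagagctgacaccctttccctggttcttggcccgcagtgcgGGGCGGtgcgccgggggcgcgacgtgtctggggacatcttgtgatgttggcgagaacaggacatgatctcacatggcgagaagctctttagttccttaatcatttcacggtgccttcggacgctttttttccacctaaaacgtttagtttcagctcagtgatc
Each window holds 2 GC boxes and none the GATA motif AGATAA on either strand. Such windows, read over the 250 bases before the start, were found for 72 of the 109 members, 94 windows in all. A GC box was present in 56.4% of them, against 52.1% of the windows of panel genes and 32.7% of all windows, and AGATAA in 4.26%, 6.52% and 9.99%. The members' windows held a median of 14.5 CpG, panel genes 13 and all genes 6. The letters describe the window and say nothing of binding.

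Positive cells of some members lay together in the liver. Of the 21 Tbx5-positive cells, 76.2% had another Tbx5-positive cell within 30 µm, against 5.96% of all liver cells, and for Tbx2 the shares were 70.8% and 18.6%, for Hoxb3 79.6% and 18.8%, and for Foxc2 60.7% and 11.7%. A share at least 2-fold above that of all cells was seen for 11 of 40 members above the genomic controls in the liver (27.5%, against 6.06% of such panel genes) and 4 of 41 in the marrow (9.76%, against 3.77%), among them Foxp3, Lhx1 and Sox17. Within 60 µm the counts were 4 (10%, against 1.61%) and 0 (against 0.68%). For Gata5 the share was 3.76 times that of all cells. Gata5-positive cells lay where cells were sparse, with a median of 27 cells within 30 µm against 53 for all cells. Tbx2-positive cells had a median of 35.

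**Figure D4:**
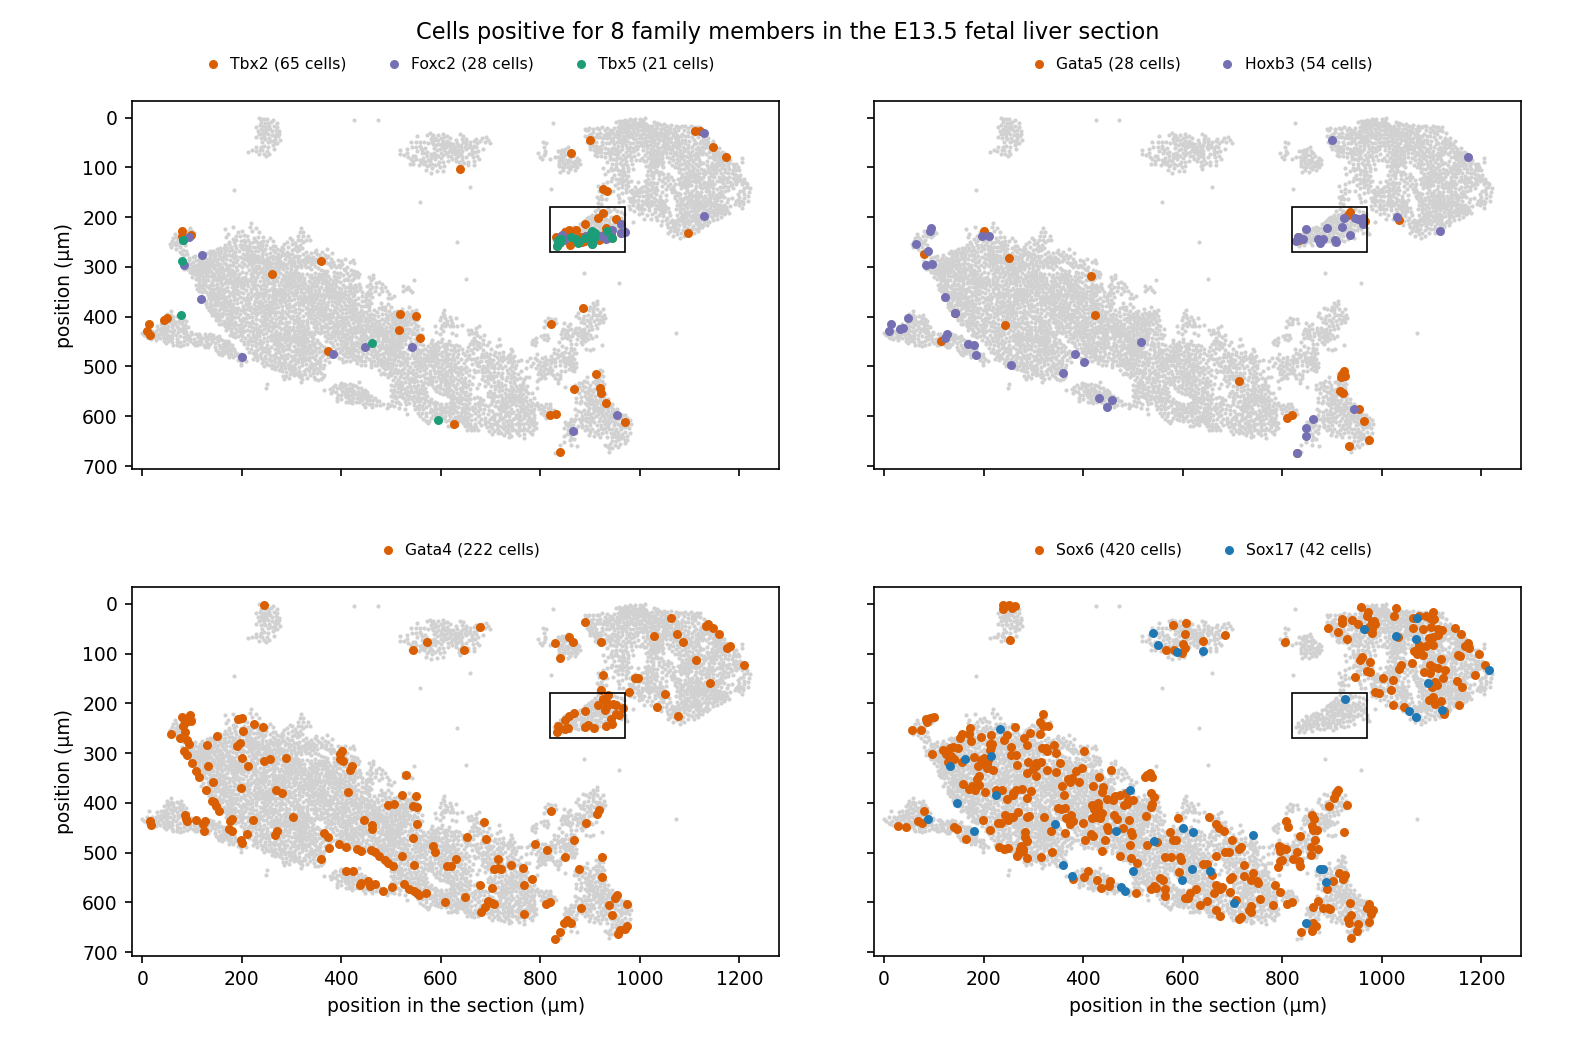
Positions (µm) of the cells positive for 8 members in the fetal liver section, with all other cells in grey. The box marks the piece of tissue where skeletal muscle and mesenchymal genes were raised, which holds 18 of the 23 Tbx5, 18 of the 33 Foxc2, 39 of the 81 Tbx2 and 21 of the 62 Hoxb3 counts.

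The boxed piece held 18 of the 23 Tbx5 counts, 18 of the 33 Foxc2 counts, 39 of the 81 Tbx2 counts and 21 of the 62 Hoxb3 counts, beside 73 counts of Myog, a factor of muscle differentiation, and 120 of Actc1, a muscle actin, of which 4 and 9 counts lay outside it. Myog and Actc1 were each seen in 18 of the 155 cells of the piece, which had a median of 372 counts against 188 elsewhere. The hepatocyte list was at 6754 CPM inside and 36021 CPM outside. Of the 216 liver counts of the skeletal muscle list, 86 were of Des, which is also on the stellate and mesenchymal list, and 77 of Myog. Over the whole section the skeletal muscle list led in Foxc2-positive cells (27.5, 19.8–37.7) and Tbx2-positive cells (18.7, 13.9–24.9), and in the 13 and 37 positive cells outside the piece it stood at 5.56 (1.12–16.8) and 2.19 (0.444–6.62), on 3 list counts each. Outside the piece, 26 of 37 Hoxb3-positive cells had another within 30 µm (70.3%, against 16.2% of all cells), as did 18 of 37 for Tbx2 (48.6% and 16.1%), 10 of 23 for Gata5 (43.5% and 11.9%), 2 of 13 for Foxc2 (15.4% and 9.39%) and 0 of 5 for Tbx5. There 7 of 32 members (21.9%) had a share at 2-fold or more, against 4.08% of panel genes. Without the piece, 23 members (21.1%, against 15.6% of panel genes) were higher in the liver, as Tbx5 (1.15, 0.355–2.89), Hoxb3 (1.41, 0.988–1.96) and Sox8 (1.85, 0.799–3.82) no longer met the rule, and 28 (25.7%, against 22%) were higher in the marrow, with Hoxc5 among those added. On the marrow side Hoxc6 stood at 4.99-fold (1.92–18.5) and Foxd2, with 1 liver count left, at 27.8-fold without it, against 2.09-fold and 5.84-fold with it. Tbx2 stood at 5.39 (3.61–7.95), Hoxa3 at 3.26 (2.11–4.90), Foxc2 at 2.03 (1.08–3.57) and Sox11 at 40.3 (26.0–64.4), Gata4 at 49.2 (36.2–68.1) and Gata6 at 71.2 (46.3–114).

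6 members were also on the smaller panel, read on 4 more sections of 50523 to 117323 cells. Foxp3 stood at 864 CPM (846–882) in the untreated spleen and 365 CPM (354–376) in the PHZ-treated spleen, a ratio of 0.422 (0.407–0.438), and was seen in 4.90% and 2.62% of the cells. Its positive cells carried Ctla4 and Il2ra in both, 10.45-fold and 9.57-fold over other cells in the untreated spleen and 21.5-fold and 24.7-fold in the treated one. Sox17 stood at 230 CPM and 94.9 CPM (0.412, 0.383–0.443), with the capillary gene Gpihbp1 at 18.2-fold and 15.2-fold. The other 4 went the same way or not at all: Sox9 0.430 (0.382–0.484), Tbx1 0.492 (0.385–0.626), Sox2 0.740 (0.633–0.865) and Pax8 1.09 (0.842–1.40). CPM is a share of the counts of a section, so a lower value cannot be told apart from more counts of other genes.

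Sox9 was highest in the postnatal marrow. It gave 13155 counts or 2044 CPM (2009–2079) in the marrow of postnatal day 8, where 2860 of its 4218 positive cells also held the cartilage gene Comp (44.1-fold) and 1949 held Ucma, another cartilage gene (40.8-fold). In the E14.5 liver it stood at 139 CPM (134–144). There the epithelial genes Epcam (80.5-fold) and Muc1 (45.4-fold) led, seen in 164 and 112 of its 1912 positive cells. For Sox17 in that section the same genes led, Epcam at 23.8-fold (21.9–26.0) and Muc1 at 16.9-fold (14.5–19.6). They were seen in only 74 and 59 of its 2160 positive cells, while Ly6a, at 13.3-fold, was seen in 290. Tbx1, a factor of pharyngeal and lymphatic development, stood at 73.3 CPM in the day-8 marrow with Pvalb (11.9-fold) and Tnnc1 (12.3-fold), both muscle genes. In the spleens it stood at 19.0 and 9.36 CPM. The lymphatic gene Lyve1 led at 65.5-fold in the untreated and 80.5-fold in the treated organ, in 32 of 167 and 16 of 107 positive cells. In the untreated spleen the fat-linked genes Retn (40.0-fold), Car3 (36.5-fold) and Pck1 (29.6-fold) followed, in 34, 45 and 25 cells. In the treated spleen Nts (19.1-fold) and Mmrn1 (15.9-fold) followed, in 11 and 18 cells. Pax8, Sox2 and, outside the spleens, Foxp3 stayed at 35.5 CPM or below in all 4 sections, where the highest negative control probe lay between 5.01 and 7.44 CPM. In the E14.5 liver the highest negative control codeword, a further class of control, reached 8.30 CPM. Foxp3 lay below it there, at 7.88 CPM.

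**Figure D5:**
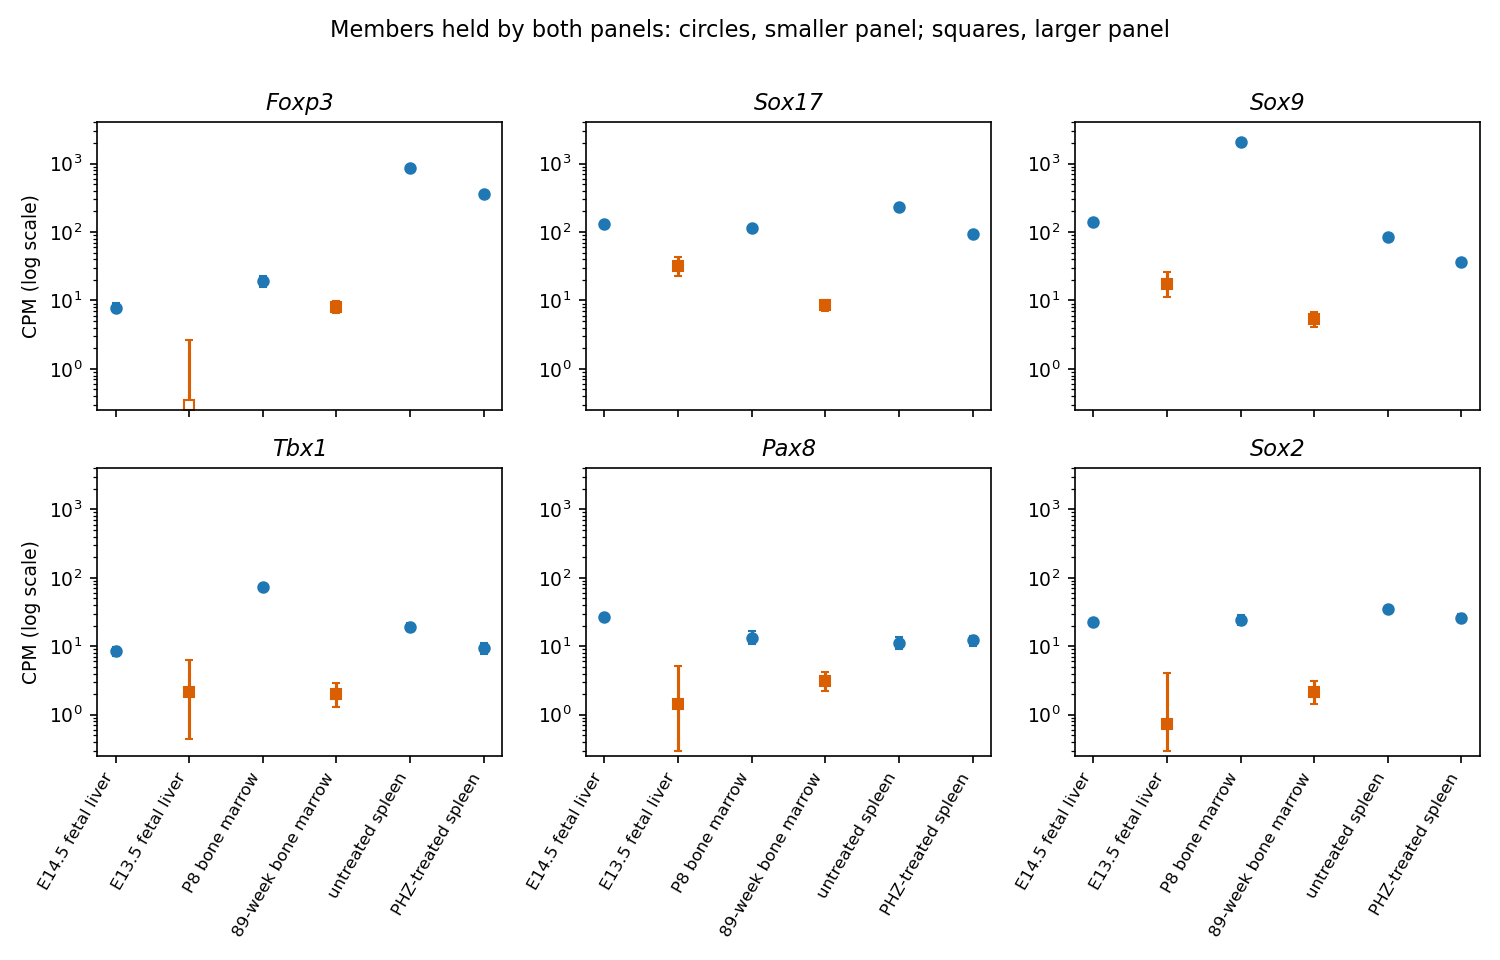
Level in CPM (log scale) of the 6 members held by both panels in each section, as circles for the smaller and squares for the larger panel. Sox9 is highest in the day-8 marrow at 2044 CPM, Foxp3 in the untreated spleen at 864 CPM, and the panels differ in their gene sets, so circles and squares are not on 1 scale.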

How the data were processed

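Transcripts were read by Xenium in situ on 6 sections, each a condition of 1 section, so replicates were not available and p-values were not computed. The authors deposited raw transcript counts for each gene in each segmented cell, with the panel's control features and the cell positions. Decoding and segmentation were made by the instrument, and a transcript can be assigned to a neighbouring cell. The deposited counts name no genome build and the cell types were not taken from an annotation.

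Cells with at least 5 detected genes were kept, counts were summed per section and CPM was computed here over all gene counts. Counts have exact Poisson intervals, shares exact Clopper-Pearson intervals and ratios exact conditional binomial intervals, at 95%. A gene was called higher at 2-fold or more with the interval clear of 1. A floor of 3 counts stood in for 0. Positive means at least 1 count, and co-detection needed 20 positive cells and 5 list counts. A cell was led by the list with the most counts, at least 3 and without a tie, a rule set after the data were seen. Each list was compared as summed counts over the positive and the other cells of 1 section, and cells are not replicates. No doublet caller was run.

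The members, lists and rules were chosen with earlier results of these data known. Named with values were the 12 most abundant members of a section, up to 15 called members in each direction, the leading list and up to 4 leading genes per member, members on both panels and abundant partner genes. Further members complete a family. Python 3.11.15 with numpy 2.4.6, scipy 1.17.1, pandas 2.3.3 and matplotlib 3.10.9 was used, and the calculations were checked on simulated data. Promoter windows are from RefSeq, GRCm38.p6. Alternatives were the scale, the control class, the cells kept, the threshold for positive cells, thinning and the radius. A few genes are counted in the totals but not reported by name here.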

Additional observations from a re-analysis of the deposited data

Results flagged for a closer look

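Sox9 went opposite ways in the fetal liver against bone marrow contrasts of the panels, by counts with 1 section on each side. On the smaller panel its E14.5 liver level was 0.0682 of that in the marrow of postnatal day 8 (0.0655–0.0709), and on the larger panel its E13.5 liver level was 3.28 times that in the 89-week marrow (1.97–5.28). The second ratio rests on 24 liver and 69 marrow counts, and the marrow count lay below the highest genomic control. Without the boxed piece, which held 4 of the 24, it was 2.86 (1.65–4.77). The difference between the contrasts was not tested. The marrow sections differ in age, and the 89-week marrow was separated from the bone after cryosectioning. In the day-8 marrow 2860 of the 4218 Sox9-positive cells held Comp, and the part of these in the difference was not tested.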

How the results depend on the processing

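No paired analysis was possible because each condition was 1 section. Per 1000 cells instead of CPM, which moves the median of all genes by 1.51 on the log2 scale, the summed members stood at 2.70 in the liver over the marrow (0.950 in CPM). On that scale 40 members were higher in the liver and 6 in the marrow, of which 39 and 6 exceeded the genomic controls. Gata3, Hoxb8 and Hoxc6 then had log2 ratios of 0.44, 0.47 and 0.44, on the liver side, but with intervals that included no difference, so they were not called. With the mean genomic control subtracted (a median shift of 0.02), a setting chosen after seeing the data, 32 and 17 were called. Above the highest of the negative control probes, negative control codewords, unassigned codewords and genomic controls, with deprecated codewords left out, lay 49 members in the liver and 41 in the marrow, above 3 times the highest negative control probe 60 in the marrow, and above the highest genomic control, also chosen later, 55 and 41. With positive cells defined by at least 2 counts, 13 of 14 members kept their list at 2-fold in the marrow (57.8% of panel genes did) and 5 of 8 in the liver (51.5%), where thinning to 50 counts left 9 of 13 (35.8%), as fewer members had 20 positive cells. At 60 µm, 4 members had a neighbour share at 2-fold or more in the liver (1.61% of panel genes did) and 0 in the marrow (0.68%), and at 30 µm without the boxed piece 7 of 32 liver members did. Thinning dropped the leading list below 1 for Lhx1 (0.821) and Lhx9 (0.811) with NK genes, Foxo4 (0.944) and Sox5 (0) with neural genes, Foxj3 (0.886), Hoxa5 (0.958) and Sox13 (0.950) with mesenchymal genes in the marrow, and in the liver for Sox6 with mesothelial (0), Foxm1 with neutrophil (0), Runx1 with neutrophil (0.634) and Foxo1 with muscle genes (0). At 2 counts Sox6 fell to 0 and Foxm1 to 0.202. The cause was not tested. Thinning left out 58188 marrow and 388 liver cells. Of the remaining values for single genes and lists, 254 moved by less than their interval and 142 by more, none changing direction. These are the called members above the genomic controls and the leading lists, so members not called and the partner genes are outside the count, and per 1000 cells Cbfb turned to the liver side, as did Sox6 (86.8 against 44.6 counts) and Foxo1 (24.2 against 13.1).

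The members in the liver rest on few counts, as the section holds 5254 cells, and the exact upper bound for 0 counts there is 2.66 CPM. A marrow level below 6.90 CPM, the highest genomic control, cannot be told from noise by the level alone, and the 12 of 63 members below it with a leading list past every control (19.0%) are near the 16.1% of such panel genes. A transcript may belong to a neighbouring cell.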
